A study of Homo sapiens with 24 samples.

Results

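The libraries described here are the 4 vehicle-treated control libraries, of 24 in the series, from SK-HEP-1 cells, a human line established from a liver adenocarcinoma and labelled by the submitters as endothelial cells. All 4 came from CRISPRi lines, in which a catalytically dead Cas9 fused to a repressor is directed by a guide RNA, and all had DMSO for 6 h. NTC1 cells carried non-targeting sgRNA-1 and gave 2 libraries. NTC2 cells carried non-targeting sgRNA-2 and also gave 2 libraries, so no gene was meant to be repressed in either line. The numbers 1 and 3 in the labels name the biological replicate harvested, and values of a line are given below in that order. The libraries were chosen by their labels alone. Each control line is a single transduced derivative of SK-HEP-1, and whether it is 1 clone or a pool is not given in the sources used here. The cells were grown in serum-containing medium without any added agent that induces p53, so the levels are those of dividing cultures.

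A cell's transcriptome reflects a small set of lineage transcription factors, the receptors that read its surroundings, and the products it secretes. Genes needed in every cell are transcribed together with a cell-type programme, and genes of other lineages, and in tumours some growth-restraining genes, are often silent. Many gene families hold near-equivalent proteins encoded by separate genes, and cell types differ in which member carries most of the family's RNA.

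Estimated counts per gene summed to 74.4 M and 88.5 M in NTC1, and to 92.1 M and 90.1 M in NTC2. Levels are in CPM, the estimated counts scaled to a library total of 1 M, and where genes are set against each other they are in TPM, computed here by dividing counts by the exon length of the gene in GENCODE 29 and scaling to 1 M. A gene is called detected at 1 CPM or more in each of the 4 libraries, silent under 0.1 CPM in each, and low otherwise. With these totals 1 CPM is 74.4 to 92.1 counts, and 0 counts in a library allows a level of up to 0.0326 to 0.0403 CPM (3 counts), a limit that covers counting error only. NTC1 harvest 3 stood apart: its correlation of log2 levels with the other 3 libraries was 0.977 to 0.989, against 0.993 to 0.998 among those 3. Its ribosomal protein genes took 6.15% of counts, against 5.12% in NTC1 harvest 1 and 4.53% and 4.23% in NTC2. Without that library the mean level of 0 of 987 detected list genes moved by more than 1.5 times, with ratios of 0.702 to 1.246. A gene low in that library alone could not pass this limit, whatever its level there. The count therefore says nothing on such genes. Levels of detected genes also shifted with transcript GC content. Per 10% more GC, log2 level against the mean of the 4 libraries changed by 0.0693 and 0.257 in NTC1. In NTC2 it changed by -0.12 and -0.207.

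Of 58825 genes, 11563 were detected, 4759 were low and 42503 were silent, and 34388 had 0 counts in all 4 libraries. Of 19916 protein-coding genes 10819 were detected (54.3%) and 6730 were silent. Few genes were very abundant: 2035 protein-coding genes reached 100 CPM in every library and 80 reached 1000 CPM. The 100 most abundant genes took 18.2% and 19.4% of counts in NTC1, and 17.9% and 17.9% in NTC2. The median coefficient of variation of a detected gene over the 4 libraries was 12.3%.

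Promoters gave a feature of the detected and silent genes that the expression values did not use. For 14863 of 19842 protein-coding genes a RefSeq promoter window was matched by symbol (GRCh38.p14, 250 bases before to 50 after the first start listed). A window was called CG-rich when the CG dinucleotide occurred at 0.6 or more of the number expected from its base content and GC content was at least 50%. CG-rich windows made up 84.6% of 8720 detected genes, 58.8% of 1600 low genes and 27.9% of 4543 silent genes, against 64.5% of all windows. The letters TATAAA, on either strand, stood in 4.97% of the windows of detected genes and in 17.8% of those of silent genes, against 9.37% of all windows. Of 14 silent tumour suppressor genes with a window 10 were CG-rich, of 13 silent hepatocyte markers 1 was, of 10 silent endothelial markers 4 were and of 5 silent epithelial markers 2 were. These are descriptions of sequence windows, and no binding or methylation was measured. The 120 bases before the start are shown for 2 abundant genes, 2 silent tumour suppressor genes and 2 silent hepatocyte genes, because they show the contrast between CG-rich and CG-poor windows, with each CG in capitals, read 5′ to 3′ on the strand of the gene.

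EEF1A1, chr6:73521033-73521152, minus strand, detected: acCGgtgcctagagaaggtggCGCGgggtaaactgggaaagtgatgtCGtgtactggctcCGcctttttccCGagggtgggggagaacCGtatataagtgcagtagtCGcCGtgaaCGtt
THBS1, chr15:39580959-39581078, plus strand, detected: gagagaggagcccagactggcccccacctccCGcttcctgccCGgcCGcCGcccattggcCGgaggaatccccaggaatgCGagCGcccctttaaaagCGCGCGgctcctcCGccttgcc
MTAP, chr9:21802516-21802635, plus strand, silent: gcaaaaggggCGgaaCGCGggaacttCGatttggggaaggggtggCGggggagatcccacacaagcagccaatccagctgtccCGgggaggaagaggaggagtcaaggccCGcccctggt
CDKN2A, chr9:21995325-21995444, minus strand, silent: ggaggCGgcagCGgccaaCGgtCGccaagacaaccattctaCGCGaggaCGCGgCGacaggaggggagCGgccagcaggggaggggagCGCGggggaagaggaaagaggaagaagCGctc
ALB, chr4:73404167-73404286, plus strand, silent: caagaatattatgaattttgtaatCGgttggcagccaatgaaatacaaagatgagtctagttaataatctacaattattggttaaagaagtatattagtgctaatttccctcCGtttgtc
FGA, chr4:154590743-154590862, minus strand, silent: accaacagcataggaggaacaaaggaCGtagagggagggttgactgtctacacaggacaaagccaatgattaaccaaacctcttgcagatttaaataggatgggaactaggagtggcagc

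The shown stretches held 10 CG in EEF1A1, 11 in THBS1, 7 in MTAP and 13 in CDKN2A, against 2 in ALB and 1 in FGA. Each stretch precedes only the first start listed, and promoters at other starts of the same gene were not examined. For CDKN2A it lies just outside the outer end of the gene, and which of the gene's products starts there was not examined.

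The most abundant transcripts encoded translation, chaperone and cytoskeletal proteins. EEF1A1, which brings aminoacyl-tRNA to the ribosome, led with 11717 and 11953 CPM in NTC1 and 11173 and 10707 CPM in NTC2. Its groups did not overlap, but its spread over the 4 libraries was small at 11388 ± 559 CPM (SD, n = 4). The cytosolic chaperones HSP90AB1 and HSPA8 averaged 5078 ± 155 and 4313 ± 419 CPM, and the nucleolar protein NPM1 averaged 4687 ± 128 CPM. VIM, the intermediate filament of mesenchymal cells, had 3952 and 4734 CPM in NTC1 and 3785 and 3784 CPM in NTC2. The 25 most abundant genes also held the matrix genes THBS1, with 2929 ± 95.5 CPM, and FN1, with 2628 ± 190 CPM, beside HSP90AA1, ACTB, ACTG1, TUBB, TUBA1B and the glycolytic genes LDHA and GAPDH. Among these 25, ACTB and GAPDH, both often taken as constant controls, had wide spreads. ACTB had 2962 and 4266 CPM in NTC1 and 2473 and 2703 CPM in NTC2, and GAPDH had 2331 and 2839 CPM in NTC1 and 1844 and 1587 CPM in NTC2. NTC1 harvest 3 was the highest library for both. GAPDH followed the order of the GC slopes given above, and a link was not tested.

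**Figure D1:**
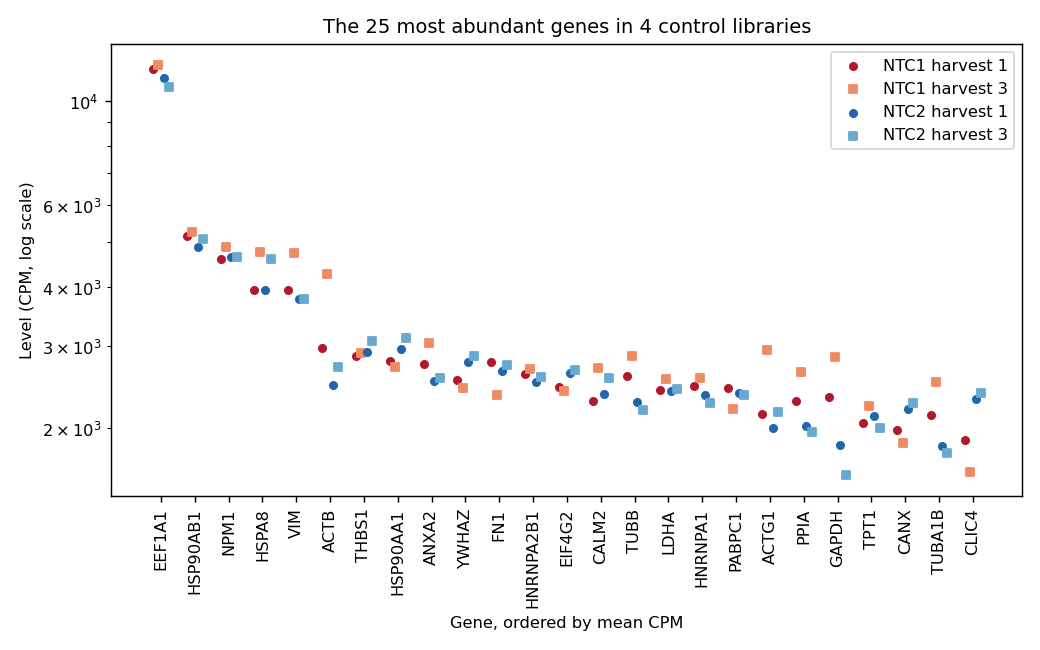
Level in CPM (log axis) of the 25 genes with the highest mean CPM, in order of that mean, with 1 point for each of the 4 libraries. EEF1A1 stands above all others at 10707 to 11953 CPM, and the 4 points of most genes lie close together, while those of ACTB and GAPDH are spread.

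Per unit of exon length the order changed. EEF1A1 (8467 ± 245 TPM, SD, n = 4) and HSP90AB1 (7540 ± 196 TPM) still led, and the next were the mitochondrial genes MT-CO3 (6117 ± 910 TPM), MT-CO1 (5777 ± 290 TPM) and MT-CO2 (5461 ± 499 TPM), which encode subunits of cytochrome c oxidase. TMSB10, a short actin-monomer-binding protein, reached 5250 ± 1207 TPM and RPS18, a ribosomal protein, 3496 ± 454 TPM. Mitochondrial genes took 0.81% to 0.927% of all counts. Libraries were made from poly(A)-selected RNA, so transcripts without a tail are not read here as levels.

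Long noncoding RNAs took a small part of the counts, and 462 of 14915 were detected. SNHG29, a small nucleolar RNA host gene, led with 557 and 616 CPM in NTC1 and 497 and 460 CPM in NTC2. NORAD, known to bind PUMILIO proteins, followed with 515 and 424 CPM in NTC1 and 496 and 501 CPM in NTC2. The others among the 10 most abundant were TUG1, GAS5, FGD5-AS1, SNHG16, NEAT1, OIP5-AS1, AL161431.1 and SNHG1, at mean levels of 109 to 226 CPM. HOTAIR, HOTTIP, H19, MEG3 and HOTAIRM1 were silent. PURPL, the p53-induced RNA that the series targets in its other lines, had 7.59 and 7.74 CPM in NTC1 and 8.25 and 9.71 CPM in NTC2. PURPL lies at chr5:27472292-27496401 (hg38, plus strand) and ranked 8588 among all genes by mean CPM. MDM2 and CDKN1A, both targets of p53, were far more abundant per length: MDM2, the ubiquitin ligase for p53, averaged 141 ± 14 TPM, the cell cycle inhibitor CDKN1A 123 ± 24.4 TPM and PURPL 14 ± 2.02 TPM. MYBBP1A, a nucleolar protein known to bind PURPL in other work, averaged 22.7 ± 5.16 TPM, and the RNA-binding protein ELAVL1 98.3 ± 5.31 TPM.

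The label names these cells endothelial, and most endothelial markers were silent. Of 28 endothelial markers 4 were detected, 7 were low and 17 were silent, and the summed level of the list was 63.5 and 73.2 CPM in NTC1 and 58.7 and 50.9 CPM in NTC2. The silent genes were PECAM1 and CDH5, which encode junction proteins of endothelium, KDR, TEK and TIE1, its growth factor receptors, VWF, ERG, ICAM2, TAL1, EMCN, CLDN5, PLVAP, LYVE1, STAB1, STAB2, CLEC14A and SOX17. ENG, a TGF-beta co-receptor also made by mesenchymal cells, had 31.3 and 41.1 CPM in NTC1 and 24.6 and 20.1 CPM in NTC2. FLI1, an ETS factor, had 25.4 and 24.3 CPM in NTC1 and 28 and 26 CPM in NTC2. ROBO4 and CD34 were detected at mean levels of 2.58 and 1.55 CPM. Most markers of this list thus went against the label, while ENG, FLI1, ROBO4 and CD34 were detected. RNA levels of a cultured line do not settle its origin, and the cells are called here by their line.

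Hepatocyte genes were silent in greater part. Of 30 hepatocyte markers 3 were detected, 5 were low and 22 were silent, with sums of 18 and 18.4 CPM in NTC1 and 16.8 and 17.5 CPM in NTC2. The genes of the plasma proteins ALB, APOA1, APOA2, APOB, APOC3, APOH, TTR, TF, FGA, FGB, FGG and AHSG and of the liver regulators HNF4A and NR1H4 were all silent. CPS1, the first enzyme of the urea cycle, had 9.06 and 8.08 CPM in NTC1 and 9.48 and 9.29 CPM in NTC2, and the pioneer factor FOXA1 had 3.99 and 4.24 CPM in NTC1 and 4.1 and 4.38 CPM in NTC2. SERPINA1 was the other detected marker, at 1.13 to 2.11 CPM over the 4 libraries.

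Mesenchymal markers carried the highest sums of the lineage lists, 8959 and 9655 CPM in NTC1 and 8600 and 8758 CPM in NTC2. Of 34 markers 16 were detected, 10 were low and 8 were silent. VIM, FN1 and SPARC made up 92.3% of the mean sum, and the median marker had 1.04 CPM. The detected ones included VIM, SPARC (a secreted matrix-binding protein, 1471 TPM on average), FN1, N-cadherin CDH2 (132 ± 14.4 TPM), RGS5 and the repressors SNAI2, ZEB1 and ZEB2. Several markers of matrix-producing fibroblasts were low: COL1A1 had 0.497 and 0.892 CPM in NTC1 and 0.456 and 0.366 CPM in NTC2, and COL1A2, COL3A1, PDGFRA and PDGFRB were also low. DCN, TCF21, PRRX1, HAND2 and the smooth muscle genes MYH11 and CNN1 were silent. The smooth muscle actin gene ACTA2, also on the list, was detected, with a mean of 0.468% of the actin TPM.

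The epithelial list split between keratins and junction genes. KRT18, a keratin of simple epithelia, had 1406 and 1716 CPM in NTC1 and 1225 and 1062 CPM in NTC2. Its dimer partner KRT8 had 727 and 934 CPM in NTC1 and 564 and 477 CPM in NTC2. NTC1 libraries lay above NTC2 libraries for both, a difference that the test between lines below did not call. Both keratins followed the order of the GC slopes given above, and a link was not tested. SOX9, a factor of bile duct cells and chondrocytes, had 113 and 132 CPM in NTC1 and 107 and 132 CPM in NTC2. In all, 6 of 24 epithelial markers were detected, 7 were low and 11 were silent, among them CDH1, which encodes E-cadherin, and its regulators GRHL2, OVOL1 and OVOL2. Thus N-cadherin and not E-cadherin RNA was present.

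Other lineages gave single genes. Of 18 leukocyte markers only CD68, a lysosomal protein gene, was detected, at 25 and 28.2 CPM in NTC1 and 19.1 and 17.8 CPM in NTC2, while CD3E, CD4, CSF1R, SPI1, TYROBP and HBB were silent. Of 25 neural and neural crest markers 4 were detected, led by TFAP2A with 86.8 and 103 CPM in NTC1 and 92.7 and 101 CPM in NTC2, and 17, including SOX10, SOX2 and PAX3, were silent. GATA4, a cardiac and liver stroma factor, was the single detected gene of 20 muscle and heart markers, at 10.4 and 10.5 CPM in NTC1 and 8.15 and 7.27 CPM in NTC2. Of 31 pluripotency and germ line genes PRAME, MAGEC2 and GAGE1 were detected, with PRAME at 33.9 and 39 CPM in NTC1 and 29.6 and 27.9 CPM in NTC2. These 3 are cancer-testis antigens, and GAGE1 belongs to a family of near-identical copies whose reads the counting may have split. All 18 proliferation markers were detected, at means of 26.9 CPM (MCM5) and above, with TOP2A, a DNA topoisomerase of dividing cells, at 1465 and 1171 CPM in NTC1 and 1623 and 1788 CPM in NTC2.

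**Figure D2:**
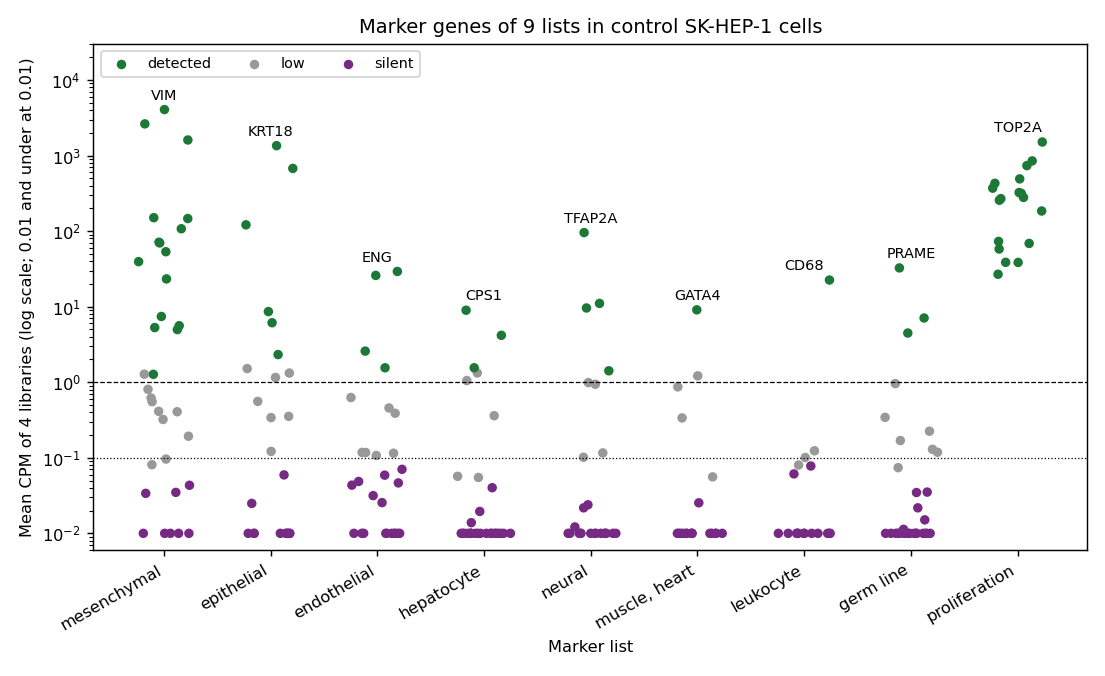
Mean CPM of the 4 libraries (log axis, levels of 0.01 and under drawn at 0.01) of each gene of 9 marker lists, coloured by class, with the most abundant gene of each list named. Dashed and dotted lines mark 1 and 0.1 CPM. Mesenchymal, epithelial and proliferation lists reach over 1000 CPM, whereas most endothelial, hepatocyte, neural, muscle and leukocyte markers lie under 0.1 CPM.

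HOX genes encode the homeodomain factors that mark position along the body axis, with higher paralog numbers used further toward the tail and the limb tips. Of 39 HOX genes 21 were detected, 11 were low and 7 were silent. HOXB9 had 67.2 and 59.9 CPM in NTC1 and 53.8 and 46.4 CPM in NTC2, and HOXB7 had 43.3 and 60.2 CPM in NTC1 and 41.6 and 42.6 CPM in NTC2. In CPM HOXB9 was the higher in all libraries but NTC1 harvest 3. Per length the order of the means was the opposite, with 135 TPM for HOXB7 and 97.3 TPM for HOXB9, against 25.2 TPM for HOXC10 and 18.5 TPM for HOXA10, the next in order. Members with the number 13 were detected in all 4 clusters, at mean levels of 14 CPM for HOXA13, 4.66 CPM for HOXB13, 6.97 CPM for HOXC13 and 7.58 CPM for HOXD13. The 7 silent genes were HOXB1, HOXC11, HOXC12, HOXD1, HOXD3, HOXD4 and HOXD12, so they held high paralog numbers as well as low ones.

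**Figure D3:**
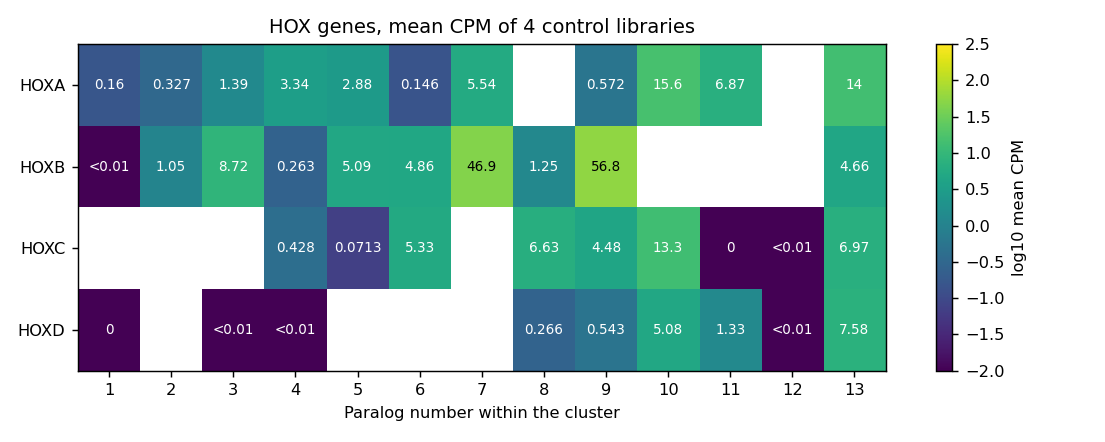
Mean CPM of the 4 libraries for the 39 HOX genes, by cluster (rows) and paralog number (columns), coloured by log10 of the mean CPM, where blank cells have no gene. HOXB7 at 46.9 CPM and HOXB9 at 56.8 CPM stand out, and all 4 genes numbered 13 carry RNA.

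Of 426 transcription factor genes examined in 25 families 243 were detected, 71 were low and 112 were silent. The highest per length was ATF4, the factor of the integrated stress response, with 268 and 236 CPM in NTC1 and 230 and 176 CPM in NTC2 and a mean of 400 TPM. The ETS factors ELK3 and ETS1 averaged 366 and 336 TPM. ETS1 had 592 and 437 CPM in NTC1 and 591 and 541 CPM in NTC2, while ERG, the ETS factor of endothelium, was silent. HIF1A, the oxygen-regulated factor, had 369 and 296 CPM in NTC1 and 397 and 408 CPM in NTC2, a mean of 317 TPM. Its relative EPAS1, typical of endothelium, had 4.48 and 3.13 CPM in NTC1 and 4.77 and 3.9 CPM in NTC2, a mean of 2.48 TPM.

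Among AP-1 factors, which form dimers of FOS and JUN proteins, FOSL1 averaged 282 TPM and JUN 141 TPM. FOS was low, with 0.645 and 0.61 CPM in NTC1 and 1.04 and 0.699 CPM in NTC2, and JUNB was low at 0.26 to 0.429 CPM. The Hippo pathway effector YAP1 had 389 and 318 CPM in NTC1 and 437 and 436 CPM in NTC2, and its DNA-binding partner TEAD1 had 538 and 307 CPM in NTC1 and 573 and 558 CPM in NTC2. NTC1 harvest 3 was the lowest library for YAP1 and TEAD1. Their secreted target products CCN1 and CCN2 averaged 1598 and 329 TPM. NR2F2, an orphan nuclear receptor of venous and mesenchymal cells, had 360 and 387 CPM in NTC1 and 371 and 384 CPM in NTC2, the glucocorticoid receptor NR3C1 averaged 144 TPM, and among 48 nuclear receptors 26 were detected and 14 silent. ESR1 was low and PGR silent. MYC averaged 149 TPM and MYCN was silent.

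Silence within factor families was uneven. Of 19 SOX genes 5 were detected (SOX9, SOX7, SOX4, SOX12 and SOX13) and 12 were silent, and of 15 T-box genes 2 were detected, TBX3 and EOMES, while 11 were silent. Every member of the E2F (10), NF-kB (5), RUNX (4) and TCF/LEF (4) lists was detected. REL, an NF-kB subunit, had 16 and 3.39 CPM in NTC1 and 16.8 and 15.7 CPM in NTC2, with NTC1 harvest 3 alone being low. TP73 was at 1.33 to 3.11 CPM and TP63 was silent.

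Of 336 receptor and surface genes 184 were detected, 63 were low and 89 were silent. Among 55 receptor tyrosine kinases AXL, MET and EGFR led, at means of 642, 415 and 166 TPM. AXL, the receptor for GAS6, had 716 and 774 CPM in NTC1 and 777 and 725 CPM in NTC2, so the lines overlapped. MET, the receptor for hepatocyte growth factor, had 686 and 493 CPM in NTC1 and 729 and 718 CPM in NTC2, whereas HGF itself was silent. EGFR had 527 and 342 CPM in NTC1 and 520 and 476 CPM in NTC2, beside RNA for its ligand gene EREG (152 TPM). Silent receptor kinases numbered 19 and included KDR, ALK, RET, FLT3 and ERBB4.

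Among 81 G protein-coupled receptors OXTR, the oxytocin receptor, was the most abundant. It had 855 and 931 CPM in NTC1 and 977 and 1083 CPM in NTC2, a mean of 944 TPM, against 416 TPM for GPRC5A, 194 TPM for the lysophosphatidic acid receptor LPAR1 and 116 TPM for the sphingosine 1-phosphate receptor S1PR1. All 4 libraries had OXTR above 850 CPM, and the NTC2 libraries were the higher. GPRC5A, an orphan receptor, had 1006 and 879 CPM in NTC1 and 683 and 618 CPM in NTC2, the opposite order. Neither difference passed the test between lines. EDNRB, BDKRB1, BDKRB2, CCR7 and ACKR3 were among the 28 silent receptors of this group.

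Matrix and adhesion receptors were high. ITGB1, the common beta subunit of many integrins, had 1865 and 1779 CPM in NTC1 and 2066 and 2154 CPM in NTC2, ALCAM averaged 978 TPM, the hyaluronan receptor CD44 723 TPM and the laminin-binding ITGA6 552 TPM. VCAM1, NCAM1 and GPC3 were silent. Of the cytokine receptor list 20 of 40 were detected, with IL6ST, the shared subunit gp130, at 340 and 231 CPM in NTC1 and 409 and 425 CPM in NTC2, and OSMR, which pairs with it, at 82.5 TPM. The death receptors TNFRSF10B and FAS averaged 134 and 72.2 TPM. Of the antigen presentation and checkpoint list 27 of 36 genes were detected, CD59 and B2M leading at 338 and 319 TPM. The checkpoint ligand CD274 was low, at 0.689 to 0.955 CPM, and HLA-DRA was detected, with 13.6 and 16.6 CPM in NTC1 and 11.5 and 12.7 CPM in NTC2.

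Of 339 genes for secreted products 164 were detected, 63 were low and 112 were silent. IGFBP3, which binds insulin-like growth factors, was first per length, with 1739 and 2207 CPM in NTC1 and 1610 and 1708 CPM in NTC2 and a mean of 1752 TPM. IGF1 was silent. The matricellular products CCN1 (1598 TPM), SPARC (1471 TPM) and THBS1 (1417 TPM) came next. The WNT antagonist DKK1 had 517 and 596 CPM in NTC1 and 570 and 558 CPM in NTC2, so the lines overlapped. SFRP1, an antagonist that binds WNT ligands, had 857 and 821 CPM in NTC1 and 863 and 849 CPM in NTC2. Of 33 WNT ligands and antagonists 7 were detected and 23 were silent, and the highest ligand, WNT5B, averaged 100.2 TPM against 1124 TPM for DKK1. The canonical ligands WNT1, WNT3A and WNT9A were silent, as were the antagonists SFRP2, SFRP4, SFRP5 and WIF1.

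Protease inhibitors were among the abundant products. TIMP3, an inhibitor of metalloproteinases, had 791 and 1203 CPM in NTC1 and 684 and 801 CPM in NTC2. NTC1 harvest 3 was its highest library. SERPINB7, of the serpin family of protease inhibitors, averaged 467 TPM. TGFB2 was the main TGF-beta ligand RNA, with 166 and 158 CPM in NTC1 and 190 and 214 CPM in NTC2, against 13.5 and 17.8 CPM in NTC1 and 10.4 and 9.16 CPM in NTC2 for TGFB1, whose row carries the name AC011462.1 in the deposited table and was matched by its ID. The BMP and TGF-beta modulators FSTL1 and CHRDL1 averaged 382 and 266 TPM. Of the growth factors FGF2 averaged 188 TPM, EREG 152 TPM and FGF5 146 TPM. Among 50 cytokines and chemokines 18 were detected, led by the interleukin genes IL18 (68.5 TPM), IL1A (57.3 TPM) and IL1B (38 TPM), and CXCL10, CXCL12, TNF, CSF2 and IFNB1 were silent. COL12A1 was the highest of 33 collagen genes, with 325 and 158 CPM in NTC1 and 328 and 297 CPM in NTC2, NTC1 harvest 3 being low.

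Most tumour suppressor genes were expressed: of 154 examined 121 were detected, 12 were low and 21 were silent. RB1, which restrains entry into S phase, had 198 and 155 CPM in NTC1 and 233 and 248 CPM in NTC2. SMARCA4, an ATPase of the SWI/SNF chromatin complex, was detected, but at a lower level than most chromatin and metabolism suppressors. It had 4.76 and 4.96 CPM in NTC1 and 3.12 and 3.38 CPM in NTC2. Its mean was 1.13 TPM, against 11 TPM for its alternative SMARCA2 and 0.822 TPM for TET1, which was lower still. Of 28 chromatin and metabolism suppressors 27 were detected, MTAP being the exception. Of 18 DNA repair genes 15 were detected, and FHIT, at a large fragile site, was silent. Other silent suppressors were CDKN2A, CDKN2B, HIC1, ZBTB16, CDH1, CDH11, OPCML, PCDH10, PCDH8, SEMA3B, DCC, SERPINB5, RNF43, WIF1, SFRP2, SFRP4, SFRP5 and GPC3. Every member named silent lay under 0.1 CPM in each library.

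CDKN2A, CDKN2B and MTAP are neighbours on chromosome 9p and had 0 counts in all 4 libraries. CDKN2A encodes the CDK4 and CDK6 inhibitor p16 and the p53 activator ARF, CDKN2B encodes p15, and MTAP encodes an enzyme of methionine salvage. In hg38, from HACD4 through AL445623.1 (chr9:20999515-23672399, 2673 kb), 33 of 35 annotated protein-coding and long noncoding genes had 0 counts in every library, and 21 of these were protein-coding. The exceptions were IFNA5, with 2 counts in all, and KLHL9, an adaptor for a ubiquitin ligase, with 82.1 and 64.9 CPM in NTC1 and 91.1 and 87.3 CPM in NTC2. KLHL13, the close relative of KLHL9 on the X chromosome, had 1.31 to 1.83 CPM. Type I interferon genes, which fill much of the stretch, and DMRTA1 are quiet in many unstimulated cells. The ends of the stretch were chosen after the counts were seen. Among all genes in the table, 21.4% of protein-coding and 65.1% of long noncoding genes had 0 counts in every library. Of the 24 annotated genes on either side, counted from MLLT3 to IFNK, 11 had 0 counts in every library, of which 2 were protein-coding. Before the stretch FOCAD had 68.3 and 54.4 CPM in NTC1 and 69.9 and 67.3 CPM in NTC2, and beyond the stretch ELAVL2 was low at a mean of 0.0785 CPM, TUSC1 was at 10.8 CPM, CAAP1 at 33 CPM and PLAA at 103 CPM. The limit set by 0 counts is 0.0326 to 0.0403 CPM in a library. RNA counts alone cannot tell a gene missing from the genome from one that is not transcribed. CDK4 and the p18 gene CDKN2C were detected, CDKN2C with 24.4 and 36.3 CPM in NTC1 and 23.7 and 24.8 CPM in NTC2.

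**Figure D4:**
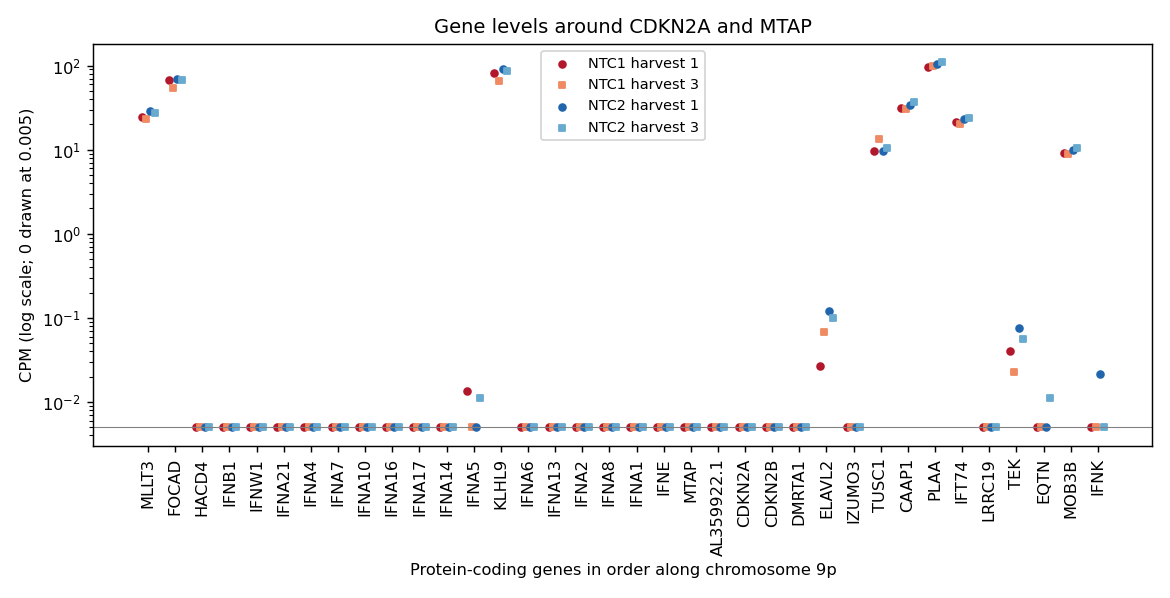
CPM (log axis, 0 drawn at 0.005) of the 36 protein-coding genes from MLLT3 to IFNK in their order along chromosome 9p, with 1 point for each of the 4 libraries. Genes from HACD4 to DMRTA1 sit at 0 in every library except KLHL9 and 2 single counts of IFNA5.

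In many of the 49 families reported 1 member carried most of the RNA. CCND1 held 94.4 ± 1.41% (SD, n = 4) of the D-type cyclin TPM, with 603 and 607 CPM in NTC1 and 606 and 654 CPM in NTC2. TGFB2 held 89.6 ± 3.94% of the TGF-beta ligands, TUBB 85.4 ± 1.66% of the beta tubulins, TUBA1B 71.3 ± 1.16% of the alpha tubulins, DNMT1 86.7 ± 1.05% of the DNA methyltransferases and PIK3CB 68.4 ± 1.47% of the class I PI3K catalytic subunits. MCL1 held 78.6 ± 2.35% of the antiapoptotic BCL2 family and SLC2A1 72.6 ± 4.32% of the glucose transporters. In the 8 families just named the leader was higher than the second member in all 4 libraries and under each length setting tried.

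Some families were shared or rested on the length used. Of the classical cadherins CDH2 held 56.5 ± 0.928%, CDH18, a brain cadherin, 24.7%, and CDH13 came next. LDHB held 60 ± 0.896% of lactate dehydrogenase TPM with LDHA second, but in CPM the order turned round, at 1818 and 1867 CPM in NTC1 and 1758 and 1669 CPM in NTC2 for LDHB against 2420 and 2545 CPM in NTC1 and 2408 and 2425 CPM in NTC2 for LDHA. VEGFC and VEGFB were each the higher in 2 of 4 libraries. Near-complete leaders were ALDOA (99.5% of the aldolases), ENO1 (98.5% of the enolases) and ELAVL1 (99.9% of the Hu proteins).

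**Figure D5:**
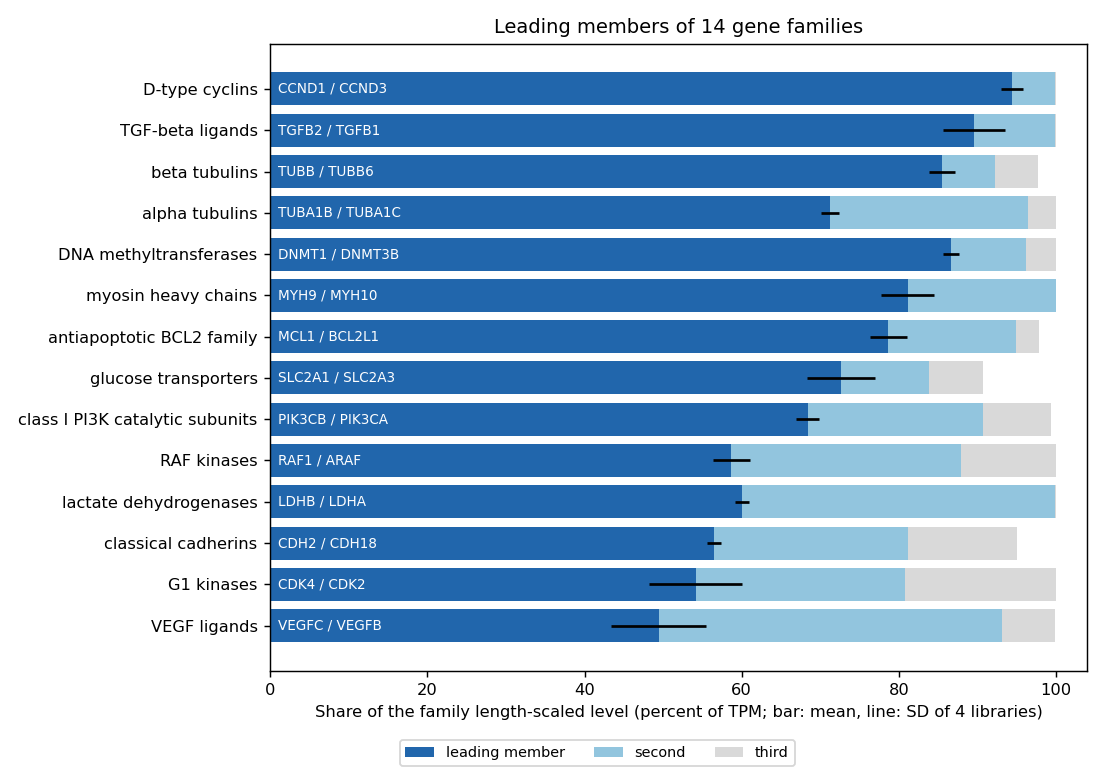
Share of the family's TPM held by the 3 leading members of 14 families (bar, mean of 4 libraries; line, SD of the leader's share), with the leading and second members named in each bar. Leaders range from 94.4% for CCND1 to 49.4% for VEGFC, which VEGFB follows closely.

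The lines were compared in a single test, to show how far the levels depend on the control line. Each guide was carried by 1 line, so guide and line cannot be told apart. With edgeR's quasi-likelihood test on the 2 libraries of each line and Benjamini-Hochberg adjustment at 0.05, 2 of 15401 genes were higher in NTC1 (0.013%) and 1 was lower (0.00649%), while 4358 had an unadjusted p under 0.05. Of 1244 list genes tested 0 were called, and 386 (31%) had an unadjusted p under 0.05, against 28.3% of all genes tested. By kind of list this share was 38.7% of 235 receptor genes and 33.7% of 264 genes of paralog families, but 6.45% of 31 HOX genes and 8.82% of 34 noncoding genes. It was 28.5% to 30.7% for the lineage, transcription factor, secreted and tumour suppressor lists. The HOX share does not mean smaller differences: the median absolute log2 difference was 0.263 for HOX genes, against 0.270 for all genes tested. The count rested on the filter, the tool and single libraries: with no filter it was 1761 higher and 1154 lower, with DESeq2 891 and 344, with a harvest-number block 5 and 2, without NTC1 harvest 1 3746 and 3775, without NTC1 harvest 3 1265 and 1148, without NTC2 harvest 1 136 and 9, and without NTC2 harvest 3 16 and 9. Differences between lines among the genes above are therefore not settled by these libraries. The 3 genes called were U2AF1L5, FAM241B and AL358075.4.

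U2AF1L5, a near-identical copy of the splicing factor gene U2AF1 at chr21:6484623-6499261, had 86.9 and 121 CPM in NTC1 and 13.6 and 13 CPM in NTC2 (log2 fold change of NTC1 over NTC2 2.89, SE 0.168, adjusted p = 0.00536 by edgeR). U2AF1 went the other way, with an edgeR adjusted p of 0.0856 that did not pass, with a mean of 40.8 CPM in NTC1 libraries, against 100.3 CPM in those of NTC2. The 2 genes share most of their sequence and RSEM splits reads between such copies, so each value alone is uncertain. FAM241B, at chr10:69630251-69633599, had 20 and 27.7 CPM in NTC1 and 5.42 and 5.07 CPM in NTC2 (log2 fold change 2.10, SE 0.175, adjusted p = 0.0258 by edgeR). AL358075.4, at chr1:46043661-46176488, had 0 counts in both NTC1 libraries and a mean of 1.24 CPM in NTC2, at least 30.8-fold lower in NTC1 against a floor of 3 counts per library (adjusted p = 0.0258 by edgeR). DESeq2 gave this gene no adjusted p. Its NTC2 counts were fractional estimates (105.9 and 119.6), and whether the splitting of reads between genes bears on them was not tested. Next by p, and not past the threshold, were AC012213.5, with a mean of 0.387 CPM in NTC1 libraries and 0 counts in NTC2, and AC005324.4, with a mean of 0.0269 CPM in NTC1 libraries against 0.622 CPM in those of NTC2 (adjusted p = 0.127 by edgeR for each).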

How the data were processed

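RNA of 4 cultures was sequenced from stranded, poly(A)-selected libraries, per the labels' protocols. The authors deposited estimated counts per gene; cutadapt, STAR, RSEM, DESeq2 and hg38 are named in the submitters' processing notes, with versions and the strand setting not given in the sources used here. Because the strand setting is not given, values of overlapping or antisense genes are uncertain. The deposited table also holds 20 columns of other samples, which were not used here.

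From the deposited estimated counts, 45 duplicate pseudoautosomal rows were added to their X rows, leaving 58825 genes, and CPM was computed as the count over the library total. TPM used the exon union length of GENCODE 29, found for 58552 gene IDs. Library totals of 74.4 M to 92.1 M make 1 CPM 74.4 to 92.1 counts, so counting error weighs on levels near 0.1 CPM and below. Levels have no test. The lines were compared with edgeR 4.0.16 (R 4.3.3) on rounded counts, with TMM scaling, filterByExpr at a minimum count of 10, a robust quasi-likelihood fit and Benjamini-Hochberg adjustment. On simulated counts for this comparison (15401 genes, 200 changed), 68% of 2-fold and 89% of 4-fold changes were recovered with 11 false calls. Whether this recovery holds for the deposited counts, with the library-wide shifts described above, was not tested. The number of genes called is therefore not read as the number that differ between lines. Alternatives were RLE scaling, other filters, DESeq2 1.42.0, a harvest block, leaving out each library, other thresholds and other lengths; mean levels without NTC1 harvest 3 were added after seeing the data. Tables and plots used Python 3.11, pandas and matplotlib.

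The genes named were the 25 highest by CPM, the 15 highest by TPM, the 10 highest long noncoding RNAs, up to 8 leading members and the silent members of each list, the first 3 of each family, genes of the p53 and PURPL field and, between lines, the genes called or the 3 of smallest p in each direction; further members were named after their values were seen. The members and the 112 lists were chosen with earlier results of these data known. Of the 1865 list symbols 11 had no row of their own, and TGFB1, MCAM, SP7 and HULC were matched by ID because their rows carry other names. Y-linked genes and XIST were left out. Some genes and families that this rule names are not reported here.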

Additional observations from a re-analysis of the deposited data

Results flagged for a closer look

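Of 168 named genes that were not silent, 13 (7.74%) had 1 library so far from the other 3 that its gap to the nearest, as a share of the range, passed Dixon's 95% limit for 4 values, which chance passes in about 1 of 20 independent groups. Some of these genes were named after their values were seen, and genes share library-wide shifts. The 7.74% is therefore a description and no test against that rate. In 11 of the 13 the distant library was NTC1 harvest 3, which also differed from the others in its ribosomal protein share and in its correlation with them.

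NTC1 harvest 3 was the low library for REL (3.39 CPM), TEAD1 (307 CPM), OSMR (102 CPM), FOCAD (54.4 CPM), ZEB2 (40.2 CPM) and the long noncoding RNAs TUG1 (158 CPM) and FGD5-AS1 (158 CPM). It was the high library for HOXB7 (60.2 CPM), IL1B (32.3 CPM), CDKN2C (36.3 CPM) and LDHA (2545 CPM). The other 2 were CCND1, high in NTC2 harvest 3 (654 CPM), and EOMES, high in NTC1 harvest 1 (1.36 CPM).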

How the results depend on the processing

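The count of genes higher and lower in NTC1 than in NTC2 (2 and 1 by edgeR) did not move with RLE scaling or a filter at 1 CPM. It was 1761 and 1154 with no filter and 891 and 344 with DESeq2, and without 1 library at a time it ranged from 16 to 3746 higher and from 9 to 3775 lower; these fits take a lone library to vary like the other line, and the cause was not tested. With harvest number as a replicate block it was 5 and 2; same-numbered harvests did not deviate together (correlation -0.0523), so the numbers are not read as pairs. All 80 alternative counts of detected and silent genes stayed within 1.5 times the value reported, and the share of the 100 most abundant genes moved by less than its SD. In 13 of the 48 families whose leading pair both had counts in every library, an alternative turned the order of the first pair of members (log2 of the first over the second). With the longest transcript as length this held for TPM3 over TPM1 (-0.35), ACTN4 over ACTN1 (-0.585), HK2 over HK1 (-0.0853), COX6B1 over COX6A1 (-0.16) and IGF2BP2 over IGF2BP3 (-0.418). With the median transcript length it held for TPM3 (-0.471), ACTN4 (-0.581), ANXA1 over ANXA2 (-0.823), S100A11 over S100A10 (-0.511), NRAS over RRAS2 (-1.04), YES1 over LYN (-0.684), HK2 (-2.41), LDHB over LDHA (-0.386), HSP90AB1 over HSPA8 (-1.14), COX6B1 (-0.0903) and IGF2BP2 (-0.39). With CPM and no length it held for TPM3 (-0.32), TMSB10 over TMSB4X (-0.36), ACTN4 (-0.498), ANXA1 (-0.551), S100A11 (-0.368), LGALS1 over LGALS8 (-0.373), LDHB (-0.463), COX6B1 (-0.361) and IGF2BP2 (-0.622). Depth limits levels under about 0.04 CPM, which 3 counts stand for.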
